A study of Mus musculus with 30 samples.

Results

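The mRNAs of 6 S100 genes (*S100a4*, *S100a6*, *S100a8*, *S100a9*, *S100a10* and *S100a11*) and 4 annexin genes (*Anxa1*, *Anxa2*, *Anxa3* and *Anxa5*) were followed in mouse livers that lacked CEBPA in hepatocytes. The 10 genes were taken by symbol from the 55450 rows of the gene count table, and each symbol matched 1 row. The study asked what the loss of CEBPA, a transcription factor of mature hepatocytes, does to livers under a diet rich in fat, cholesterol and fructose (HFCFD), which leads to steatohepatitis and fibrosis. Poly(A) RNA from livers of male mice backcrossed to C57BL/6N was sequenced, in 3 experiments of 10 mice. All mice were *Cebpa* fl/fl and fed the HFCFD, and per experiment 5 carried no Cre (controls) and 5 carried Cre (knockout). In HFCFD2W the knockout mice were *Cebpa* ΔHep, with a constitutive albumin-cre, and were fed for 2 weeks without tamoxifen. In HFCFD8W+T10D the knockout mice were *Cebpa* ΔHep,ERT2, with the tamoxifen-inducible albumin-ERT2-cre, and both genotypes carry the label of 8 weeks of diet and 10 days of tamoxifen. In HFCFD12W+T10W both genotypes carry the label of 12 weeks of diet and 10 weeks of tamoxifen, 22 weeks of feeding in all, with the same inducible Cre. The ages of the mice are not given in the labels. Both Cre lines use the albumin promoter to delete *Cebpa* in hepatocytes, and *Cebpa* in other cells of the liver was not measured separately here. The Cre line, the diet time, tamoxifen and the experiment cannot be told apart.

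The S100 proteins are small calcium-binding proteins that mostly work as dimers. The annexins bind phospholipid membranes in the presence of calcium, and several S100 dimers dock onto a particular annexin, which ties membranes to the cytoskeleton. In liver these genes are known best from cells other than resting hepatocytes: S100A8 and S100A9 fill the cytosol of neutrophils and monocytes, S100A4 marks subsets of macrophages and mesenchymal cells, and S100A6, S100A11 and annexin A2 are common in bile duct cells, stellate cells and injured epithelium.

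Each library held 7996123 to 10257347 counts and 14793 to 17342 genes with a count. Values are given as CPM, counts scaled to a common library total that was first adjusted by edgeR's TMM factor, and, where genes are compared with each other, as TPM, which also divides by transcript length. *Cebpa*, the deleted gene, had means of 177.2 CPM in control and 4.74 CPM in knockout mice of HFCFD2W, 143.7 and 17.2 CPM in those of HFCFD8W+T10D, and 114.4 and 21.3 CPM in those of HFCFD12W+T10W, with no overlap between genotypes. The summed CPM of 8 hepatocyte markers, led by *Alb*, had group medians of 59200 to 158000, and none of the 8 was at 0 in all mice of a group. The samples are whole livers, in which fewer cells of a type and less RNA per cell cannot be told apart.

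All 6 S100 genes lie on chromosome 3 in 2 clusters (GRCm38 coordinates of GENCODE M21). *S100a4* (chr3:90603771-90606045) is followed by *S100a6* (chr3:90612882-90624181) after 6.8 kb, by *S100a8* (chr3:90668978-90670035) after another 44.8 kb and by *S100a9* (chr3:90692632-90695721, on the minus strand) after another 22.6 kb. *S100a11* (chr3:93520488-93526287) and *S100a10* (chr3:93555080-93564643) are neighbors 28.8 kb apart. The annexin genes are spread over the genome, with *Anxa5* at chr3:36448923-36475894, *Anxa3* at chr5:96793339-96845966, *Anxa2* at chr9:69453620-69491795 and *Anxa1* at chr19:20373428-20390944. Genes annotated across the exons of *S100a4* (*Gm42674*), *Anxa3* (*Gm42603*) and *Anxa2* (the antisense gene *Gm16144*) were at 0 counts in all libraries.

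Promoter windows from RefSeq (GRCm38.p6), of 300 bases from 250 before to 50 after the start, were available for 8 of the 10 genes and not for *S100a10* and *Anxa3*. They were searched on both strands for 4 short motifs that did not overlap each other. The motif TTGCNNAA, the core that C/EBP factors such as CEBPA bind, was in the windows of 2 of 8 genes, *S100a9* and *Anxa1*, and in 10.8% of all 32851 windows. The AP-1 motif TGANTCA was in 2 of 8 windows, *S100a11* and *Anxa2*, against 7.81% of all windows. TATAAA was in 5 of 8 windows (*S100a4*, *S100a8*, *S100a9*, *Anxa1* and *Anxa2*) against 13.6%, and the GC box GGGCGG in 3 of 8 (*S100a9*, *S100a11* and *Anxa2*) against 35.7%. *S100a6* and *Anxa5* held none of the 4. The *Anxa1* window (chr19:20390622-20390921) lies wholly inside the GENCODE M21 gene, so its TTGCNNAA and TATAAA matches are downstream of that annotated start. Shown here, 5′ to 3′ and ending before the most upstream annotated start, are the sequences of *S100a11* and *Anxa2*, which hold TGAGTCA and were both higher in both tamoxifen experiments, of *S100a9*, which holds the C/EBP-type letters, and of *Anxa5*, which was higher in both tamoxifen experiments and holds no match. Capitals mark the motif matches, and matches downstream of the printed stretches, among them the TATAAA of *S100a9* and *Anxa2*, are not shown. The sequences cover chr3:93520246-93520487 and chr9:69453433-69453619 on the plus strand and chr3:90695722-90695971 and chr3:36475895-36476137 on the minus strand. A match is only a string of letters, and binding was not measured in these data.
*S100a11*: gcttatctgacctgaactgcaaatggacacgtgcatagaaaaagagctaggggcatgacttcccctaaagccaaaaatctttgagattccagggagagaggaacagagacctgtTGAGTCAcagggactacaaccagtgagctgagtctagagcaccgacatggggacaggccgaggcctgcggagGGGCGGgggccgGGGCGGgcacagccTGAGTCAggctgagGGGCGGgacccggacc
*Anxa2*: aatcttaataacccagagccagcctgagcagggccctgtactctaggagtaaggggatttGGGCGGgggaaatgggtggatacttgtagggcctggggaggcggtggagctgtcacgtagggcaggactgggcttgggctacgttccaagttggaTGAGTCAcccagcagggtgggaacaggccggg
*S100a9*: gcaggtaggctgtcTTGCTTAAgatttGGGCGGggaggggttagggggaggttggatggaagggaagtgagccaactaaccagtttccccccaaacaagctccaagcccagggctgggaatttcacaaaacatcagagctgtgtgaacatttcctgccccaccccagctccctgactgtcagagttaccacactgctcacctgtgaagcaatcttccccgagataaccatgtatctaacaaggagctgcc
*Anxa5*: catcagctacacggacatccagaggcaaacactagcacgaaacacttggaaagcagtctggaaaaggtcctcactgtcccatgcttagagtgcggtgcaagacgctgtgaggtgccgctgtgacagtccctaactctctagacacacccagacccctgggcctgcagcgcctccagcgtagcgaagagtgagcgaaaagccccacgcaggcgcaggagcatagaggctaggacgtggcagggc

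In the livers of *Cebpa* fl/fl mice, *S100a10* was the most abundant of the 10 mRNAs per transcript length in each experiment. Its mean was 122.7 ± 21.3 TPM (SD, n = 5) after 2 weeks of diet, 202.0 ± 71.2 TPM with 10 days of tamoxifen and 106.0 ± 25.5 TPM with 10 weeks of tamoxifen, or 58.3%, 51.5% and 39.7% of the summed TPM of the 10 genes. *Anxa5* was next with 52.6 to 74.5 TPM, then *S100a11* with 12.3 to 38.6 TPM and *Anxa2* with 10.9 to 25 TPM. *S100a10* exceeded *Anxa5* in every control mouse, but the ranges of the pair overlapped in HFCFD12W+T10W, and those of *S100a11* and *Anxa2* overlapped in all 3 experiments. From the third place down, every pair of neighbors in the order overlapped in the controls of both tamoxifen experiments. In those of HFCFD2W *Anxa2*, *S100a6* (5.42 TPM) and *Anxa3* (1.85 TPM) followed each other without overlap, and the ranges from *Anxa3* down overlapped. In knockout livers *Anxa5* had the highest mean in HFCFD2W (75.6 ± 14.9 TPM), above *S100a10* in 4 of 5 mice with overlapping ranges, and in HFCFD12W+T10W (275.3 ± 16.7 TPM), where the ranges of the pair did not overlap. In those of HFCFD8W+T10D *S100a10* had the highest mean (231.3 ± 58.9 TPM), above *Anxa5* in 5 of 5 mice with overlapping ranges. The summed TPM of the 10 genes was 210.6 ± 32.04 (controls) and 169.1 ± 26.9 (knockout) in HFCFD2W, 390.1 ± 107.4 and 610.7 ± 188.1 with 10 days of tamoxifen, and 264.8 ± 43.9 and 1034 ± 165.7 with 10 weeks of it. In HFCFD12W+T10W alone the sum did not overlap between genotypes, at 212.8 to 308.0 TPM against 827.3 to 1269 TPM. Without the TMM factor, TPM gave wider gaps between genotypes there than CPM. Mean *S100a10* was 106.0 TPM in these controls and 189.2 TPM in these knockout mice, but 40.61 and 54.75 CPM.

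**Figure D1:**
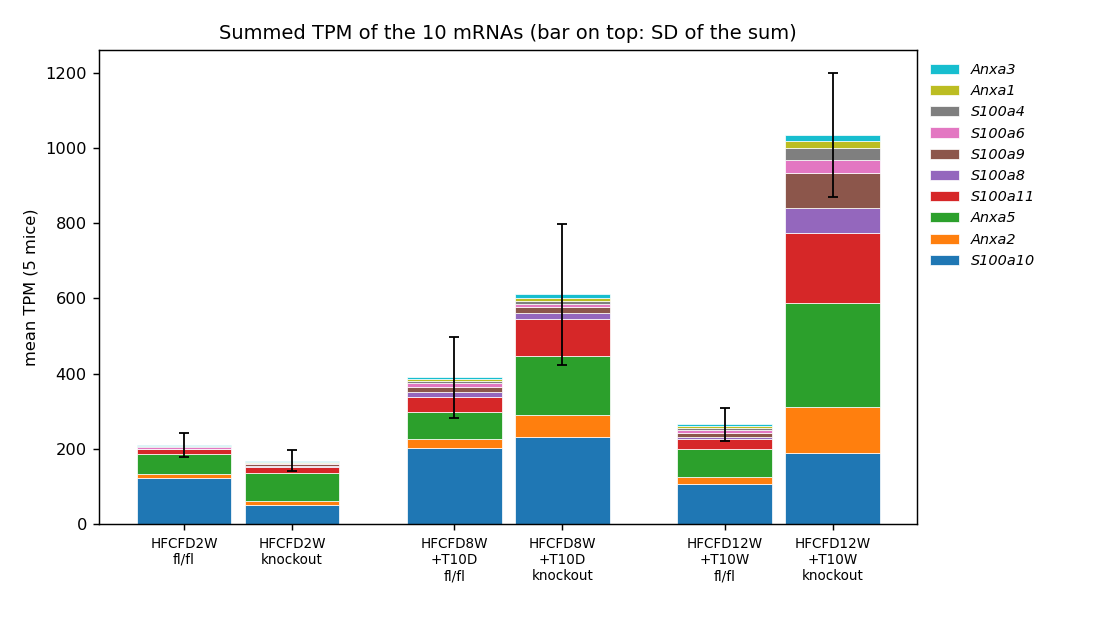
Stacked bars give the mean TPM of each of the 10 mRNAs in the 6 groups (5 mice each), and the error bar on top is the SD of the sum over mice. *S100a10*, at the bottom, made up 58.3% of the sum in HFCFD2W control livers and 18.8% in HFCFD12W+T10W knockout livers, where the sum reached 1034 TPM. TPM has no TMM factor.

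The genotype comparison within each experiment asked which of these mRNAs depend on hepatocyte CEBPA at that stage of feeding. The tests are edgeR's quasi-likelihood tests, and a gene was called at a Benjamini-Hochberg adjusted p under 0.05 over all genes tested. In HFCFD2W *S100a10* fell, the only call among 7 members tested, where 16.7% of all 11068 genes were called and 8.09% were called lower. In HFCFD8W+T10D *S100a11*, *Anxa2*, *Anxa3* and *Anxa5* rose, 4 of 10, where 10.3% of 11990 genes were called higher and 17.1% either way. In HFCFD12W+T10W 10 of 10 rose, where 27.4% of 12463 genes were called higher and 51.1% either way. By more than 2-fold, 1 member rose in HFCFD8W+T10D (4.09% of all genes) and 9 in HFCFD12W+T10W (14.3%), led by *S100a8*, *S100a9* and *S100a11*. In the HFCFD12W+T10W controls *S100a8* had 2 to 17 counts per mouse, *S100a4* 6 to 22 and *S100a6* 7 to 39. They were tested there only through the knockout mice, so their calls are no support. The median log2 fold change of the members was 0.23 over the 7 tested after 2 weeks of diet, then 0.37 with 10 days and 2.00 with 10 weeks of tamoxifen, and that of all genes tested was 0.01 in each. All knockout mice lay above all controls for 2, 1 and 9 members in the 3 experiments in that order, against 5.84%, 6.29% and 19.5% of 12964 genes, and all lay below for 1 member in HFCFD2W, against 5.49%. The 2 in HFCFD2W were *S100a8* and *S100a9*, which had at most 10 counts per mouse there and were too low to be tested. They are among the 12964 genes only through the other groups, so that count is no support.

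**Figure D2:**
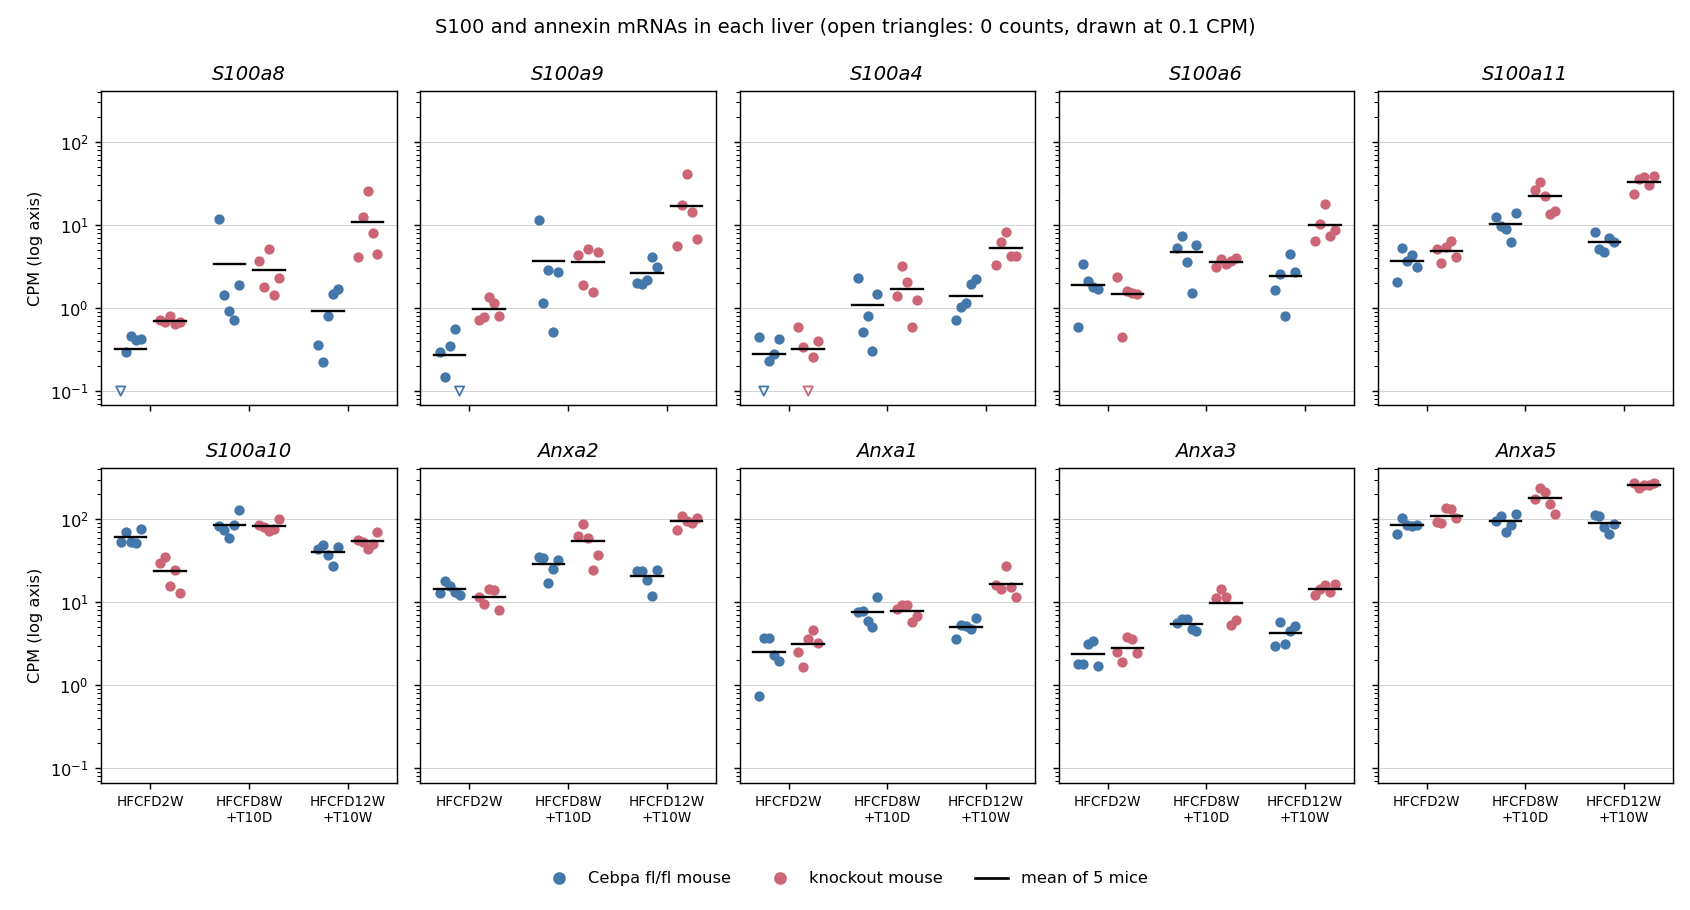
Each panel shows 1 mRNA in CPM on a log axis, with 1 point per mouse (blue, *Cebpa* fl/fl; red, knockout), the group mean as a line, and open triangles for mice with 0 counts. *S100a10* was lower in the HFCFD2W knockout mice (12.9 to 34.7 CPM) than in their controls (51.3 to 76.1 CPM), and 9 of the 10 mRNAs did not overlap between genotypes in HFCFD12W+T10W.

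S100A10 and annexin A2 form a complex, an S100A10 dimer bridging a pair of annexin A2 chains, that binds plasminogen and its activators at the cell surface, and unpaired S100A10 protein is known to be unstable. In HFCFD2W *S100a10* was at 53.6, 70.4, 52.9, 51.3 and 76.1 CPM in the 5 control mice and at 29.9, 34.7, 15.7, 24.7 and 12.9 CPM in the 5 *Cebpa* ΔHep mice. Every knockout mouse was below every control mouse. The mRNA fell by 1.36 on the log2 scale (SE 0.23, adjusted p = 0.00164 in edgeR), from a mean of 60.9 ± 11.5 to 23.6 ± 9.24 CPM (SD, n = 5). The call held when any 1 of the 10 mice was left out (adjusted p up to 0.00568). *Anxa2*, its partner, was at 14.5 ± 2.37 CPM in controls and 11.6 ± 2.82 CPM in knockout mice, a log2 fold change of -0.32 (SE 0.17, adjusted p = 0.206).

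In HFCFD8W+T10D *S100a10* was at 82.3, 73.6, 59.1, 85.0 and 127.8 CPM in control and at 84.8, 80.5, 72.0, 77.3 and 101.6 CPM in knockout mice, with a log2 fold change of -0.03 (SE 0.18, adjusted p = 0.936), and the groups overlapped widely. *Anxa2* was at 35.0, 33.9, 17, 25.3 and 31.9 CPM in controls and at 63.1, 87.4, 59.8, 24.7 and 37.3 CPM in knockout mice. Knockout replicates 1, 2, 3 and 5 were above all controls and replicate 4 was within their range. *Anxa2* rose by 0.95 on the log2 scale (SE 0.29, adjusted p = 0.0421), and the call was lost (adjusted p up to 0.107) when any 1 of the 5 controls or of knockout replicates 1, 2 and 3 was left out.

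In HFCFD12W+T10W *Anxa2* went from 24.1, 23.8, 18.5, 12.1 and 24.2 CPM in controls to 74.0, 108.4, 96.4, 89.2 and 102.6 CPM in knockout mice, with no overlap and a log2 fold change of 2.24 (SE 0.17, adjusted p = 7.4e-07). *S100a10* was at 43.4, 48.5, 37.0, 27.4 and 46.8 CPM in controls and 56.8, 53.3, 43.8, 50.3 and 69.5 CPM in knockout mice, where knockout replicate 3 lay among the controls. Its log2 fold change was 0.47 (SE 0.15, adjusted p = 0.0195), the smallest of the 10. That call was lost without control replicate 3 (adjusted p = 0.0537), without knockout replicate 5 (0.0540) and in a joint fit of all libraries (0.0838).

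The ratio of *S100a10* to *Anxa2* TPM was lower in knockout livers in 2 of the 3 experiments. In HFCFD2W *S100a10* fell, and in HFCFD12W+T10W both rose and *Anxa2* rose more. The ratio was 11.5 ± 2.75 in controls and 5.61 ± 2.59 in knockout mice of HFCFD2W (exact two-sided permutation test on its log2, p = 0.0159, adjusted p = 0.0238 over 3 experiments). It was 8.14 ± 2.05 and 4.94 ± 2.67 in HFCFD8W+T10D (p = 0.0794, exact test, adjusted p = 0.0794), and 5.24 ± 0.318 and 1.56 ± 0.343 in HFCFD12W+T10W (p = 0.00794, exact test and the smallest it can give, adjusted p = 0.0238). In HFCFD8W+T10D the knockout mice split, with replicates 4 and 5 at 8.49 and 7.04, among the controls (5.82 to 10.6), and replicates 1, 2 and 3 at 3.60, 2.35 and 3.23, below them. Without knockout replicate 4 or 5 the adjusted p was 0.0317.

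**Figure D3:**
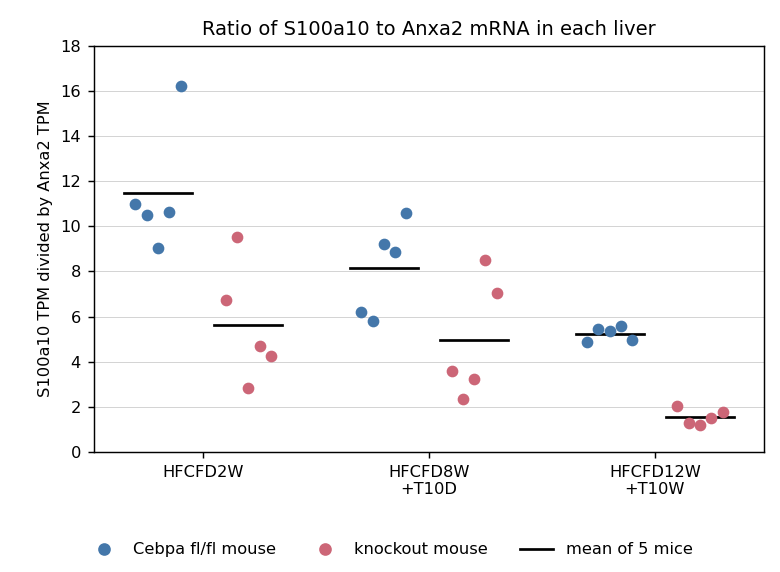
Each point is the *S100a10* TPM divided by the *Anxa2* TPM of 1 mouse, with blue for *Cebpa* fl/fl, red for knockout and lines for the means of 5 mice. In HFCFD12W+T10W the knockout mice (1.19 to 2.03) lie below the controls (4.86 to 5.58).

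The genotype effect on *S100a10* itself differed between experiments. In 1 edgeR fit of all 30 libraries it was higher in HFCFD8W+T10D than in HFCFD2W by 1.32 on the log2 scale (SE 0.30, adjusted p = 0.0039) and higher in HFCFD12W+T10W than in HFCFD2W by 1.79 (SE 0.30, adjusted p = 6.57e-05). Between the tamoxifen experiments the difference was 0.47 (SE 0.29, adjusted p = 0.326). Among control mice *S100a10* was lower in HFCFD12W+T10W than in HFCFD8W+T10D (log2 difference -1.08, SE 0.21, adjusted p = 0.000965), the only one of the 10 called in that contrast, where 11.4% of 12964 genes were called and 5.12% were called lower. Over the 6 group means of log2 CPM, centered on their average for each gene, the member nearest to *S100a10* was *S100a6* at a root mean square difference of 0.76 log2 units, which ranked 7831 of 12954 genes, while the 3 nearest genes of all were *Dact2* (0.10), *Tnfaip2* (0.17) and *Fam84a* (0.17).

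*S100a8* and *S100a9* encode the subunits of calprotectin, which binds calcium and zinc and signals through TLR4 and RAGE. In HFCFD12W+T10W *S100a8* was at 0.356, 0.227, 0.804, 1.49 and 1.72 CPM in controls and at 4.10, 12.4, 25.8, 7.94 and 4.53 CPM in knockout mice. *S100a9* was at 2.02, 1.93, 2.18, 4.13 and 3.13 CPM in controls and at 5.67, 17.6, 40.8, 14.5 and 6.88 CPM in knockout mice. Neither overlapped between genotypes, and in both the knockout mice spread widely, with replicate 3 on top and replicates 1 and 5 at the bottom. The log2 fold changes were 3.57 for *S100a8* (SE 0.62, adjusted p = 0.000406) and 2.71 for *S100a9* (SE 0.53, adjusted p = 0.000943). Both calls held when any 1 of the 10 mice was left out, with log2 fold changes of 2.97 to 3.93 and 2.09 to 2.93. *S100a8* had 2 to 17 counts per control mouse there and was tested only through the knockout mice.

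In HFCFD8W+T10D neither was called, and the direction turned when 1 control mouse was left out. *S100a8* was at 11.8, 1.42, 0.927, 0.711 and 1.87 CPM in controls and 3.65, 1.81, 5.20, 1.42 and 2.28 CPM in knockout mice. *S100a9* was at 11.4, 1.16, 2.90, 0.508 and 2.76 CPM in controls and 4.31, 1.89, 5.20, 1.54 and 4.75 CPM in knockout mice. Control replicate 1 was above all other mice of the experiment in both. The log2 fold changes were -0.20 (SE 0.68, adjusted p = 0.877) and -0.06 (SE 0.62, adjusted p = 0.962), and without that mouse 1.21 (adjusted p = 0.0782) and 0.95 (adjusted p = 0.221).

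In HFCFD2W both were too low for the test across all genes, as was *S100a4*. *S100a8* had 0 to 4 counts per control mouse and 5 or 6 per knockout mouse (means of 0.321 and 0.701 CPM), and *S100a9* had 0 to 4 and 6 to 10 counts (0.269 and 0.961 CPM). Both were higher in every knockout mouse than in any control mouse, with p = 0.00794 in the exact two-sided permutation test, the smallest it can give, in 3 such tests. *S100a4* was at 0.276 and 0.317 CPM (p = 0.778, exact permutation test). Without a filter on low counts, edgeR gave adjusted p = 0.245 for *S100a8* and 0.0435 for *S100a9*. A few counts per mouse lie behind these values.

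Neutrophil markers were highest in the mice with the highest *S100a8* of each group of the tamoxifen experiments, except the HFCFD12W+T10W controls. The summed CPM of 12 neutrophil markers was 8.19, 23.2, 48.4, 18.3 and 8.66 in the HFCFD12W+T10W knockout mice, which is also their order in *S100a8*, and 1.59 to 4.48 in their controls. In HFCFD8W+T10D it was 15.6 in control replicate 1, the mouse with the high *S100a8* and *S100a9*, and 1.93 to 8.17 in the other controls and 3.80 to 10.7 in knockout mice. In HFCFD2W it was 0.284 to 2.08 in controls, where *Ly6g*, *Mmp8*, *Elane* and *Cd177* were at 0, and 1.21 to 2.36 in knockout mice, where *Ly6g* and *Retnlg* were at 0, so that the genotypes overlapped in the markers there. The HFCFD2W control with the highest marker sum (replicate 2) had 2 counts of *S100a8* and 1 of *S100a9*. Only 0, 1 and 2 of the 12 markers had enough counts to be tested in the 3 experiments, and those tested were called higher. Their part in the *S100a8* and *S100a9* results was not tested.

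**Figure D4:**
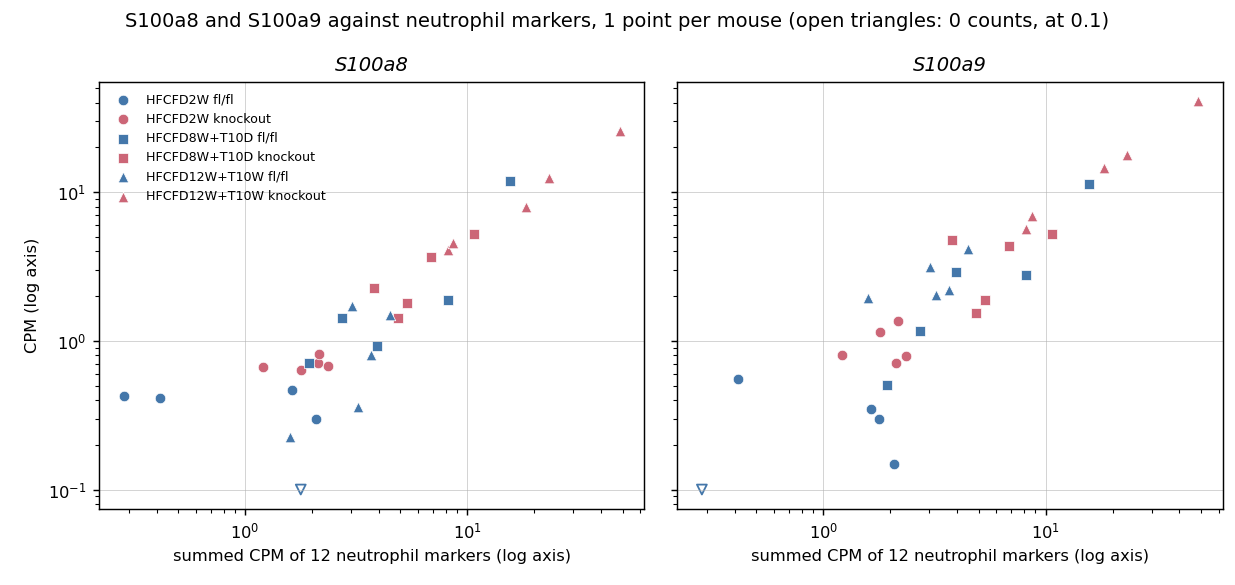
Each point is 1 mouse, with the summed CPM of 12 neutrophil markers on the horizontal log axis and *S100a8* (left) or *S100a9* (right) CPM on the vertical log axis; open triangles are mice with 0 counts. HFCFD12W+T10W knockout replicate 3 is at the upper right (48.4 CPM of markers) and HFCFD8W+T10D control replicate 1 is at 15.6 CPM of markers.

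*S100a11*, *S100a6* and *S100a4* encode dimers that bind annexins or cytoskeletal proteins, S100A11 with annexin A1 and S100A4 with myosin. *S100a11* was at 12.5, 9.83, 9.04, 6.30 and 13.8 CPM in HFCFD8W+T10D controls and at 26.1, 33.4, 22.6, 13.5 and 14.7 CPM in knockout mice, so that knockout replicate 4 lay just below the highest control. It rose by 1.12 on the log2 scale (SE 0.26, adjusted p = 0.0128), the only rise over 2-fold among the 10 in that experiment. In HFCFD12W+T10W it went from 8.32, 5.10, 4.71, 6.89 and 6.16 CPM to 23.5, 35.5, 38.0, 30.5 and 39.1 CPM, with no overlap, a log2 fold change of 2.46 (SE 0.17) and the lowest adjusted p of the 10 (4.04e-07). In HFCFD2W it was at 3.74 ± 1.24 and 4.91 ± 1.13 CPM (log2 fold change 0.39, SE 0.24, adjusted p = 0.292).

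*S100a6* went from 1.66, 2.61, 0.804, 4.48 and 2.73 CPM in HFCFD12W+T10W controls to 6.36, 10.3, 18.2, 7.30 and 8.66 CPM in knockout mice, a log2 fold change of 2.08 (SE 0.38, adjusted p = 0.00053). In HFCFD8W+T10D it was at 4.73 ± 2.24 CPM in controls and 3.60 ± 0.369 CPM in knockout mice (log2 fold change -0.37, SE 0.31, adjusted p = 0.47), and in HFCFD2W at 1.92 ± 1.011 and 1.49 ± 0.684 CPM (-0.37, SE 0.42, adjusted p = 0.584). *S100a4* went from 0.713, 1.02, 1.15, 1.95 and 2.22 CPM to 3.31, 6.19, 8.19, 4.20 and 4.29 CPM in HFCFD12W+T10W, a log2 fold change of 1.91 (SE 0.33, adjusted p = 0.000353). Both were wholly higher in those knockout mice, with replicate 3 the highest for each. Their controls there had 7 to 39 counts of *S100a6* and 6 to 22 of *S100a4*, so both were tested only through the knockout mice. *S100a4* in HFCFD8W+T10D was at 1.09 ± 0.818 and 1.70 ± 0.991 CPM, with 3 to 39 counts per mouse and no call (log2 fold change 0.68, SE 0.51, adjusted p = 0.407).

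Annexin A5 binds phosphatidylserine and is the protein used to stain dying cells. *Anxa5* was the only one of the 10 wholly higher in the knockout mice of HFCFD8W+T10D, at 172.9, 235.6, 213.3, 152.4 and 117.2 CPM against 95.6, 109.7, 70.3, 85.2 and 115.6 CPM in controls, although the lowest knockout mouse, replicate 5, was only just above the highest control. It rose by 0.92 on the log2 scale (SE 0.19, adjusted p = 0.00645). In HFCFD12W+T10W it was at 276.8, 238.5, 260.3, 255.0 and 274.0 CPM against 111.7, 108.8, 79.8, 66.6 and 86.8 CPM, a log2 fold change of 1.57 (SE 0.13, adjusted p = 1.18e-06), and the 5 knockout mice lay within 1.16-fold of each other, the narrowest range of any member in any group. In HFCFD2W it was at 84.4 ± 13.2 and 110.6 ± 22.7 CPM (log2 fold change 0.39, SE 0.14, adjusted p = 0.0707), and it passed the threshold when control replicate 2 (adjusted p = 0.0441) or knockout replicate 3 (0.0425) was left out.

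Annexin A1 restrains neutrophil recruitment through the receptor FPR2, and annexin A3 is abundant in neutrophils. *Anxa3* was at 5.56, 6.21, 6.37, 4.78 and 4.53 CPM in HFCFD8W+T10D controls and at 11.2, 14.5, 11.6, 5.34 and 6.08 CPM in knockout mice, where replicates 4 and 5 lay among the controls. It rose by 0.86 (SE 0.26, adjusted p = 0.0388), and as for *Anxa2* the call was lost (adjusted p up to 0.0999) without any 1 of the controls or of knockout replicates 1, 2 and 3. *Anxa1* had means of 7.64 ± 2.54 and 7.90 ± 1.56 CPM there (log2 fold change 0.06, SE 0.22, adjusted p = 0.884). In HFCFD12W+T10W both rose without overlap, *Anxa3* from 4.30 ± 1.24 to 14.6 ± 1.83 CPM (log2 fold change 1.80, SE 0.17, adjusted p = 4.21e-06) and *Anxa1* from 5.05 ± 1.05 to 16.8 ± 5.94 CPM (1.77, SE 0.23, adjusted p = 4.26e-05). *Anxa3* was at 12.4, 14.6, 16.2, 13.1 and 16.5 CPM in these knockout mice, close together, and *Anxa1* at 15.95, 14.3, 27, 15.2 and 11.6 CPM, with replicate 3 well above the rest. In HFCFD2W neither was called, with log2 fold changes of 0.23 (SE 0.27) and 0.29 (SE 0.36).

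**Figure D5:**
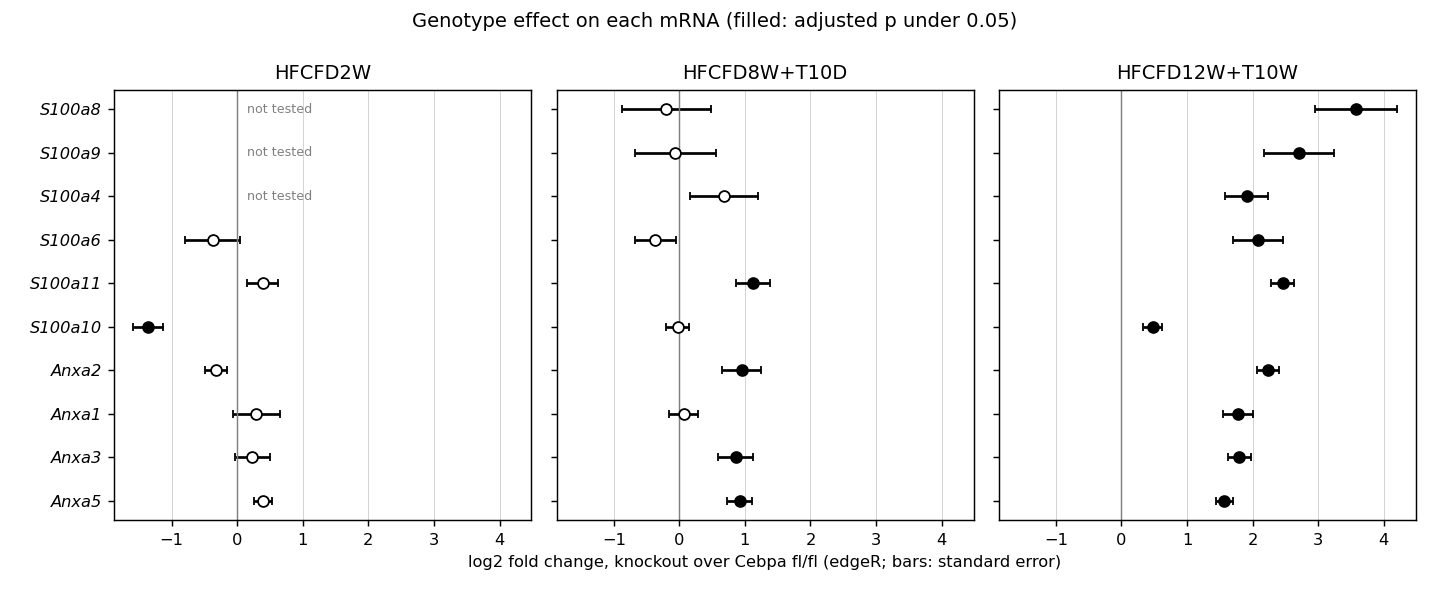
Points give the log2 fold change of knockout over *Cebpa* fl/fl mice for each mRNA in the 3 experiments, with bars of 1 standard error; filled points were called at an adjusted p under 0.05 in edgeR, and 3 mRNAs were not tested in HFCFD2W. The 10 points of HFCFD12W+T10W run from 0.47 (*S100a10*) to 3.57 (*S100a8*).

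The tests of the difference between experiments asked whether the genotype effects themselves differed. From HFCFD8W+T10D to HFCFD12W+T10W the log2 effect was higher for 6 members, *S100a8* (by 3.74 on the log2 scale), *S100a9* (2.73), *S100a6* (2.42), *Anxa1* (1.68), *S100a11* (1.31) and *Anxa2* (1.26), with adjusted p of 0.0042 to 0.0203, where 10.5% of 12964 genes were called and 4.97% higher. Without HFCFD8W+T10D control replicate 1 the differences for *S100a8* and *S100a9* were 2.32 (adjusted p = 0.0520) and 1.72 (0.124), and without HFCFD12W+T10W knockout replicate 3 that for *S100a9* was 2.13 (0.0513), while *S100a6*, *S100a11*, *Anxa1* and *Anxa2* were called with any 1 mouse left out. From HFCFD2W to HFCFD8W+T10D 2 members were called, *S100a10* (1.32, from a log2 fold change of -1.36 to -0.03) and *Anxa2* (1.26, SE 0.36, adjusted p = 0.0217), against 11.2% of all genes either way and 4.45% higher. From HFCFD2W to HFCFD12W+T10W 7 were called higher (*S100a6*, *S100a10*, *S100a11*, *Anxa1*, *Anxa2*, *Anxa3* and *Anxa5*), by 1.13 to 2.52, against 30.7% either way and 13.4% higher. These 3 differences share groups of mice and are not independent of each other.

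Among control livers alone, 8 members were higher in HFCFD8W+T10D than in HFCFD2W, where 43.6% of all genes were called and 22.2% called higher. The log2 differences ran from 0.98 (*Anxa2*) to 3.69 (*S100a9*), and those not called were *Anxa5* (0.18, adjusted p = 0.416) and *S100a10* (0.49, adjusted p = 0.0517). With DESeq2, without a filter, or with upper quartile or library-total scaling 9 members were called, *S100a10* among them (adjusted p = 0.0162 to 0.049). *S100a4*, *S100a8* and *S100a9*, at a mean of 0.276, 0.321 and 0.269 CPM in the HFCFD2W controls, were too low for the filter within that experiment and entered this fit through the other groups, so their differences start from a few counts and their calls are no support. Without HFCFD8W+T10D control replicate 1, the mouse with high *S100a8*, *S100a8* had a difference of 1.87 (adjusted p = 0.0588) and *S100a4* of 1.48 (adjusted p = 0.0797), and 6 members were called. Diet time, tamoxifen, Cre strain and experiment all differ between these control groups and cannot be told apart.

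Markers of other cells also differed between genotypes. In HFCFD12W+T10W, where all 10 rose, all 11 stellate and fibroblast markers were called higher (summed CPM 283 to 362 in controls, 1250 to 1540 in knockout mice), all 9 biliary markers (10.9 to 14 and 78.8 to 124), 10 of 13 monocyte and macrophage markers with 2 lower (224 to 686 and 720 to 856) and 3 of 4 tested lymphocyte markers (11.6 to 22.8 and 35.6 to 53.2). Of the 9 biliary markers, 1 had at most 3 counts in every control mouse and was tested only through the knockout mice. Of 7 endothelial markers 1 was called higher and 2 lower (134 to 234 and 155 to 175). Of 8 hepatocyte markers 4 were lower (99000 to 124000 and 51500 to 62800). In HFCFD8W+T10D 11 of 13 monocyte and macrophage markers, 3 of 11 stellate and fibroblast markers, 4 of 7 tested biliary markers and 1 of 3 tested lymphocyte markers were higher, 1 of 7 endothelial and 3 of 8 hepatocyte markers were lower. In HFCFD2W 3 of 8 tested monocyte and macrophage markers and 1 of 8 hepatocyte markers were higher, and none of 11 stellate and fibroblast, 2 biliary, 7 endothelial and 2 lymphocyte markers tested was called in edgeR (1, 0, 2 and 0 at an unadjusted p under 0.05). Over all genes tested, 27.4% were called higher and 51.1% either way in HFCFD12W+T10W, and 10.3% and 17.1% in HFCFD8W+T10D. In HFCFD2W 16.7% were called either way. The endothelial counts of both tamoxifen experiments and the hepatocyte count of HFCFD2W were near these shares. For the hepatocyte markers of HFCFD12W+T10W only the count either way was near its share, and all 4 called were lower. Their summed CPM did not overlap between genotypes there.

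The same mice stood apart within HFCFD8W+T10D. Knockout replicates 4 and 5, which had the lowest *S100a11*, *Anxa2*, *Anxa3* and *Anxa5* of their group, also had its lowest summed monocyte and macrophage markers (677 and 752 CPM, against 910 to 1460 in the other 3) and stellate and fibroblast markers (580 and 567 against 624 to 1160). Their neutrophil marker sums (4.86 and 3.80 CPM against 5.35 to 10.7) and biliary marker sums (25.1 and 26.4 against 27.5 to 32.2) were the lowest too. *Cebpa* in replicates 4 and 5 was also the lowest of the group, at 12.9 and 11.1 CPM against 15.2 to 25.1. Hepatocyte markers summed to 114000 CPM in replicate 4, near the controls (113000 to 138000), and to 67400 in replicate 5, among the others (56000 to 76700). The part of these cells in the results was not tested.

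Of 18 other S100 and annexin genes, 7 could be tested in HFCFD2W and none was called in edgeR (3 at an unadjusted p under 0.05), with log2 fold changes from -0.37 to 0.15. Of all genes tested there 16.7% were called, so a count of none among 7 is near the share of all genes. In HFCFD8W+T10D 3 of 7 were higher, *Anxa7* (log2 fold change 0.51), *Anxa6* (0.45) and *S100a16* (0.39), and in HFCFD12W+T10W 4 of 9 were higher and 3 lower (all genes tested: 10.3% higher in the first, 27.4% higher and 51.1% either way in the second). The higher ones were *Anxa13* (4.21, from 0.2005 to 3.82 CPM), *Anxa9* (1.83), *Anxa4* (0.57, from 53.8 to 77.7 CPM) and *Anxa7* (0.31). *Anxa13* had 0 to 4 counts per control mouse and 27 to 64 per knockout mouse, and *Anxa9* 2 to 6 and 13 to 23. Both were tested only through the knockout mice, so their calls are no support. The lower ones were *S100a13* (-0.49), *S100a1* (-0.37, from 60.0 to 45.2 CPM) and *Anxa11* (-0.36, from 39.6 to 29.98 CPM). *Anxa6*, one of the most abundant of them at 111.4 to 150.3 CPM over the groups, had a log2 fold change of -0.03 there (adjusted p = 0.865).

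Receptors and partners of the 10 proteins were also read, from a list of 12. *Tlr4*, the receptor for calprotectin, was higher in knockout mice in each experiment, by 1.06 (adjusted p = 0.0478), 0.87 (0.0202) and 1.29 (0.000136) on the log2 scale in edgeR, while *Ager*, which encodes RAGE, had at most 3 counts in any library. In HFCFD2W *Tlr4* had 2 to 13 counts per control mouse and 14 to 22 per knockout mouse. It was tested there only through the knockout mice, so that call is no support. *Fpr1* and *Fpr2*, the formyl peptide receptors, were higher in HFCFD8W+T10D (0.79 and 1.46, adjusted p = 0.00722 and 0.00513 in edgeR). Neither was called in HFCFD12W+T10W (0.16 and 0.45). The list holds 4 genes of the plasminogen system, and plasminogen is bound by the S100A10 and annexin A2 complex. In HFCFD12W+T10W *Plat*, tissue plasminogen activator, rose by 3.58 (from 0.558 to 6.65 CPM), *Plaur*, the urokinase receptor, by 1.79 and *Plau*, urokinase, by 1.18, while *Plg*, plasminogen made by hepatocytes, was lower (-0.80, from 2326 to 1292 CPM). *Plat* had 3 to 7 counts per control mouse there and 64 to 91 per knockout mouse, and *Plaur* 3 to 13 and 21 to 38. Both were tested only through the knockout mice, so their calls are no support. *Plau* also rose in HFCFD8W+T10D (0.90, adjusted p = 0.029 in edgeR). *Ahnak*, a scaffold that binds the same complex, rose in HFCFD12W+T10W (1.31, from 14.7 to 35.4 CPM) and had log2 fold changes of 0.54 and 0.05 in HFCFD2W and HFCFD8W+T10D (adjusted p = 0.0725 and 0.91). *Cd36*, a fatty acid transporter, was lower in HFCFD2W (-1.06, adjusted p = 0.0184) and HFCFD12W+T10W (-0.67, adjusted p = 0.0155), with -0.74 in HFCFD8W+T10D (adjusted p = 0.0515), and *Bsg*, at 344.5 to 540.0 CPM, was not called in any. In all, 1 of 8 tested partners was higher and 1 lower in HFCFD2W, 4 of 10 higher in HFCFD8W+T10D, and 5 of 11 higher and 2 lower in HFCFD12W+T10W. Over all genes tested, 16.7%, 17.1% and 51.1% were called either way in the 3 experiments, and 10.3% and 27.4% were higher in the last 2, so the counts of called partners in HFCFD2W and HFCFD12W+T10W were near the share of all genes.

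Likeness of profile was the root mean square difference, in log2 units, between the 6 centered group means of a member and of another gene. Each member was set against all others of the 12954 genes compared. The nearest gene to *Anxa3* was *Col6a1* (0.09) and to *Anxa2* it was *Col5a1* (0.14), both collagens, and to *Anxa1* it was *Ezr* (0.10). For *S100a11* the nearest were *H2-Ab1* (0.11) and *H2-Eb1* (0.13), class II antigen presentation genes. *S100a6* was nearest to *Retnlg* (0.09), which had no counts in any HFCFD2W knockout mouse, so low counts set part of its profile. *Anxa5* was nearest to *Aplp1* (0.08). Matches of 3 members were looser, *S100a4* to *Lilr4b* (0.22), *S100a8* to *Fstl1* (0.23) and *S100a9* to *Rassf2* (0.28). Among themselves, *Anxa1* and *Anxa3* were the closest pair (0.20). With 6 points per profile and 12954 genes, near matches are a description only.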

How the data were processed

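RNA of 30 livers, 1 stranded poly(A) library per mouse, was measured in 6 groups of 5 mice. Per the labels and the submitters' processing notes (Trimmomatic 0.36, STAR 2.5.1, Picard 1.84, RSEM 1.2.22, DESeq2, mm10), the authors made expected counts, TPM and FPKM per gene with RSEM, and deposited the expected counts without normalization. A signal table in which the authors scaled counts of 15010 filtered genes by TMM was deposited too, and like the FPKM it served only for alternatives. Whether counting used strand is not given in the sources used here. All 55450 identifiers and symbols are those of GENCODE M21 (GRCm38). RSEM splits reads among similar genes, and 6 of 300 member counts were not whole.

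Expected counts were rounded. In R 4.3.3 with edgeR 4.0.16, low genes were removed with filterByExpr by group, libraries were scaled by TMM, and knockout was compared with control per experiment in a quasi-likelihood fit. P-values were adjusted by Benjamini-Hochberg over all genes tested. Differences between experiments and between control groups came from 1 fit of all 30 libraries. The ratio of *S100a10* to *Anxa2* and the 3 members too low for the filter in HFCFD2W were compared by exact permutation tests over all 252 arrangements of the mice (Python 3.11.15 with numpy 2.4.6). The scripts were tested on simulated counts. Libraries of 7996123 to 10257347 counts leave a few counts per mouse below about 1 CPM. The p-values of tests within an experiment measure the spread between its mice. Those of the fit of all 30 libraries measure the spread between mice within groups of all 3 experiments. None measures a spread between repeats of an experiment.

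The members and all lists were chosen with earlier results of these data known. Named beside the 10 members were, from lists of 18 other S100 and annexin genes and 12 receptors and partners, the 4 called genes with the largest change per comparison and those over 20 CPM in a group, and the 3 genes most alike to each member in profile. *Plau* in HFCFD12W+T10W, *Anxa7* there, and the not called values of *Fpr1*, *Fpr2* and *Ager* were added after their values were seen. Alternatives were DESeq2 1.42.0, no filter, the filter of the authors, upper quartile or library-total scaling, limma 3.58.1 on log2(CPM + 1), a joint fit, a replicate block, a fold minimum of 2, FPKM or counts for the ratio, and each mouse left out.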

Additional observations from a re-analysis of the deposited data

Results flagged for a closer look

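In the tests for a mouse far from its group, 3 of 60 sets of 5 mice were marked, and chance marks about 1 in 20. *S100a8* (11.8 CPM) and *S100a9* (11.4 CPM) were high in control replicate 1 of HFCFD8W+T10D, where the gap to the next mouse was 0.896 and 0.780 of the group's range (critical value 0.71). The summed CPM of 12 neutrophil markers in that mouse was 15.6, against 1.93 to 8.17 in the other controls. *Anxa1* was high in knockout replicate 3 of HFCFD12W+T10W (27 CPM, gap 0.716), the mouse that also had the highest *S100a4*, *S100a6*, *S100a8*, *S100a9* and neutrophil marker sum (48.4 CPM) of its group. The part of these cells was not tested.

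The genotype effect differed between experiments in 15 tests (log2 difference of effects, edgeR's joint fit). From HFCFD2W to HFCFD8W+T10D it was higher for *S100a10* by 1.32 (adjusted p = 0.0039), from a log2 fold change of -1.36 to -0.03, and for *Anxa2* by 1.26 (0.0217). From HFCFD8W+T10D to HFCFD12W+T10W it was higher for *S100a8* by 3.74 (0.00744), *S100a9* by 2.73 (0.0203), *S100a6* by 2.42 (0.0042), *Anxa1* by 1.68 (0.00473), *S100a11* by 1.31 (0.0109) and *Anxa2* by 1.26 (0.0157). From HFCFD2W to HFCFD12W+T10W it was higher for *Anxa2* by 2.52 (1.1e-05), *S100a6* by 2.41 (0.00352), *S100a11* by 2.03 (0.000228), *S100a10* by 1.79 (6.57e-05), *Anxa3* by 1.53 (0.00317), *Anxa1* by 1.44 (0.0119) and *Anxa5* by 1.13 (0.000678). Without the mouse with high *S100a8* the *S100a8* and *S100a9* differences between the tamoxifen experiments were 2.32 (adjusted p = 0.0520) and 1.72 (0.124).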

How the results depend on the processing

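Of the members' values under alternatives other than leaving out a mouse, 422 kept direction and call, 12 changed sign, 8 gained and 4 lost a call. With a mouse left out, the numbers were 1010, 24, 13 and 23. In HFCFD2W 2 members were called without a filter and with the authors' filtered genes and 3 with limma, and 1 to 2 with a mouse left out. In HFCFD8W+T10D 2 were called with limma, 1 with the fold minimum, and 2 to 4 with a mouse left out, 2 in the 8 fits without any 1 control or without knockout replicate 1, 2 or 3. Between control groups, HFCFD12W+T10W against HFCFD8W+T10D, 2 were called with DESeq2 and with upper quartile scaling, and 1 to 4 with a mouse left out. In HFCFD12W+T10W the count was 9 to 10 under every setting run.

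The replicate numbers did not pair the mice (correlations of deviations over 2000 genes from -0.23 to 0.07 in HFCFD2W, -0.10 to 0.15 in HFCFD8W+T10D and -0.09 to 0.16 in HFCFD12W+T10W). With the replicate block 1, 4 and 10 members were called in the 3 experiments, and for the differences between experiments 1 (HFCFD2W to HFCFD8W+T10D, *Anxa2* 1.10, adjusted p = 0.0745 in edgeR), 7 and 7.

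Signs changed only for values that were not called. In HFCFD8W+T10D the *S100a10* log2 fold change was 0.0092 with upper quartile scaling, 0.1594 with library totals and 0.0106 with the block. There *S100a8* was at 0.2239 with limma and 0.264 with the block, and *S100a9* at 0.1387 with library totals, 0.245 with limma and 0.301 with the block. In the difference from HFCFD2W to HFCFD8W+T10D *S100a6* was at 0.0463 with upper quartile scaling, 0.1886 with library totals and 0.3388 with the block, and *Anxa1* at 0.0414 with the block. With a mouse left out, the HFCFD8W+T10D fold changes ran from -0.0651 to 0.2748 for *Anxa1*, -0.1410 to 0.1627 for *S100a10*, -0.5189 to 1.2136 for *S100a8* and -0.3561 to 0.9480 for *S100a9*. The differences to HFCFD2W ran from -0.2934 to 0.2402 for *S100a6* and -1.5841 to 0.1452 for *S100a8*, and those between the later control groups from -0.1640 to 0.0234 for *Anxa5* and -0.7580 to 0.5438 for *S100a9*. The log2 ratio of *S100a10* to *Anxa2* in HFCFD8W+T10D ran from -1.0895 to -0.6266 and passed the threshold without knockout replicate 4 or 5 (exact permutation test, adjusted p = 0.0317). The cause of these changes was not tested.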
